A study of Homo sapiens with 4 samples.

Results

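Cystine uptake and glutathione synthesis were followed in the human pre-B leukemia line Nalm-6 through 7 genes: SLC7A11, SLC3A2, GCLC, GCLM, GSS, GSR and CHAC1. The genes were listed by function, with earlier results of these data known, and their probes were found by matching the RefSeq accession of each array probe to these symbols. This gave 11 probes among the 41000 on the array, for 7 of 18203 named genes. Of the 11 probes, 9 were well above background on all 4 arrays and all 11 on at least 1.

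The study asked how the INO80 complex, an ATP-dependent chromatin remodeler, bears on gene expression under oxidative stress caused by heme. RNA came from 4 Nalm-6 cultures, each on 1 one-colour array: wild type (WT), Arp5 KO, in which both alleles of the gene for the INO80 subunit Arp5 were disrupted in 1 established line, Arp8 KO, made in earlier work, in which the gene for the subunit Arp8 was targeted, and a culture whose label, Arp8 OE, stands for overexpression of Arp8. Heme, at 20 uM for 12 hours, is named for every culture in the titles and the treatment protocol. Another label, the treatment characteristic, names no heme for both knockouts, and the source name does so for Arp5 KO but not for Arp8 KO. Genotype and treatment of the knockouts therefore cannot be told apart, and with 1 array per genotype no difference was checked against a biological replicate and none was tested.

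Cells make glutathione, their main small thiol, from glutamate, cysteine and glycine. Cysteine enters mostly as its oxidized dimer, cystine, through system xc-, in which SLC7A11 is the exchanger and SLC3A2 (4F2hc) the heavy chain that carries it to the membrane. Glutamate-cysteine ligase, made of the catalytic subunit GCLC and the modifier subunit GCLM, joins glutamate to cysteine, glutathione synthetase (GSS) adds glycine, glutathione reductase (GSR) returns oxidized glutathione to its reduced form, and CHAC1 cleaves glutathione in the cytosol. The transcription factor NRF2 acts on several of these genes through antioxidant response elements (ARE), which the heme-sensing repressor BACH1 can occupy, and ATF4, the factor of the amino acid response, acts on SLC7A11 and CHAC1 through C/EBP-ATF response elements (CARE).

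Promoter windows were available for 4 of the 7 genes in the RefSeq table of GRCh38.p14, and were searched on both strands, over 250 bases before and 50 bases after the start site, for the ARE core TGACNNNGC, the CARE core TGATGNAA and the AP-1/MARE core TGANTCA. Of 35116 promoter windows of this length, 13.3% held the ARE core, 3.62% the CARE core and 7.71% the AP-1/MARE core. Below, the 250 bases before the start site are shown for the windows of members with a match, on the strand of the gene, to be set beside the differing values of these genes. Capitals mark a match.
GCLM (chr1:93909431-93909680, minus strand): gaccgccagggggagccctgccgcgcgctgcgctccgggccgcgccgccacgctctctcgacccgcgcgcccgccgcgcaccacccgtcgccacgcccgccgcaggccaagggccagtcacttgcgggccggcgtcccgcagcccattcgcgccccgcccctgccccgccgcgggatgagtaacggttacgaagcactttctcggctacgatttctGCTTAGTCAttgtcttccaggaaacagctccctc
CHAC1 (chr15:40953221-40953470, plus strand): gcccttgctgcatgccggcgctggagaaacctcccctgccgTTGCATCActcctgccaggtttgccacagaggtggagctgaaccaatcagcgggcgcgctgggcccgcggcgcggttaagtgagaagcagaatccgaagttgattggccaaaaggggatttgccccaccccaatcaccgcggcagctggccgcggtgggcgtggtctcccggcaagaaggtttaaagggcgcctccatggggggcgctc
SLC3A2, 1 of 3 windows (chr11:62881449-62881698, plus strand): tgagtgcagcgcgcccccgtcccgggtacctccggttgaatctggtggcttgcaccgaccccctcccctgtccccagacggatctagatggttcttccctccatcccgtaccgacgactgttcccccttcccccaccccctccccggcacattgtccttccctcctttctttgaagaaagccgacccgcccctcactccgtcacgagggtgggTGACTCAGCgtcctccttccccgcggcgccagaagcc
The GCLM window held 1 ARE core, read on the opposite strand, whose first base on the gene's strand lay at -34 from the start site. CHAC1 held 1 CARE core, also on the opposite strand, at -209. In the SLC3A2 window an ARE core at -37 overlapped an AP-1/MARE core at the same place, and a further CARE core lay at 38, past the bases shown. None of the motifs was found in the GCLC window or in the other windows of SLC3A2. A match describes letters in a window, and binding was not measured on these arrays.

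Levels are given as log2 of the processed signal relative to the 75th percentile of the same array, so that 0 is the level of that percentile, and differences are differences of these levels. Where 3 differences stand in a row without names, they are those of Arp5 KO, Arp8 KO and the Arp8 OE-labelled culture from WT, in this order. Levels can be compared between arrays for 1 probe, and not between probes. The 75th percentile itself ranged from 647.4 to 739.6, 55.8% to 57.4% of probes were well above background, and no spot was saturated. The technical SD beside a difference was taken from 264 probes printed at 10 positions, at a like level on the same arrays, and covers the spread between spots only. All 4 arrays lay on 1 slide with 1 scan time. ACTR5, which encodes Arp5, differed from WT by -4.27 in Arp5 KO. The ACTR8 probes differed by -0.53 and -0.68 in Arp8 KO. Neither passed 2-fold, so the loss of Arp8 was not shown by its RNA on these arrays. In the Arp8 OE-labelled culture they differed by 0.02 and -0.01, so that the transcript was not raised there and that label is used as a name only. All 12 precursor B cell marker genes were well above background on every array, with a log2 summed level between 8.32 and 8.69. None of the 5 T cell and 4 erythroid marker genes was above background on all arrays, and of 5 myeloid genes only CD14 was.

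The cystine exchanger gene SLC7A11 differed most among the 7 genes: by its brightest probe it was 4.16-fold lower than WT in Arp5 KO, lower still in Arp8 KO, at a log2 difference of -3.33, and level with WT in the Arp8 OE-labelled culture. GCLM and GSR were highest in WT and lowest in Arp8 KO, though 1 GSR probe was as low in the Arp8 OE-labelled culture, and both genes were also lower than WT in the Arp8 OE-labelled culture. CHAC1 was lower than WT in both knockouts and higher in the Arp8 OE-labelled culture. SLC3A2, GCLC and GSS stayed within a log2 difference of -0.43 to 0.03 of WT in all 3 cultures. In bulk RNA, fewer cells that express a gene and less RNA of it per cell cannot be told apart.

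**Figure D1:**
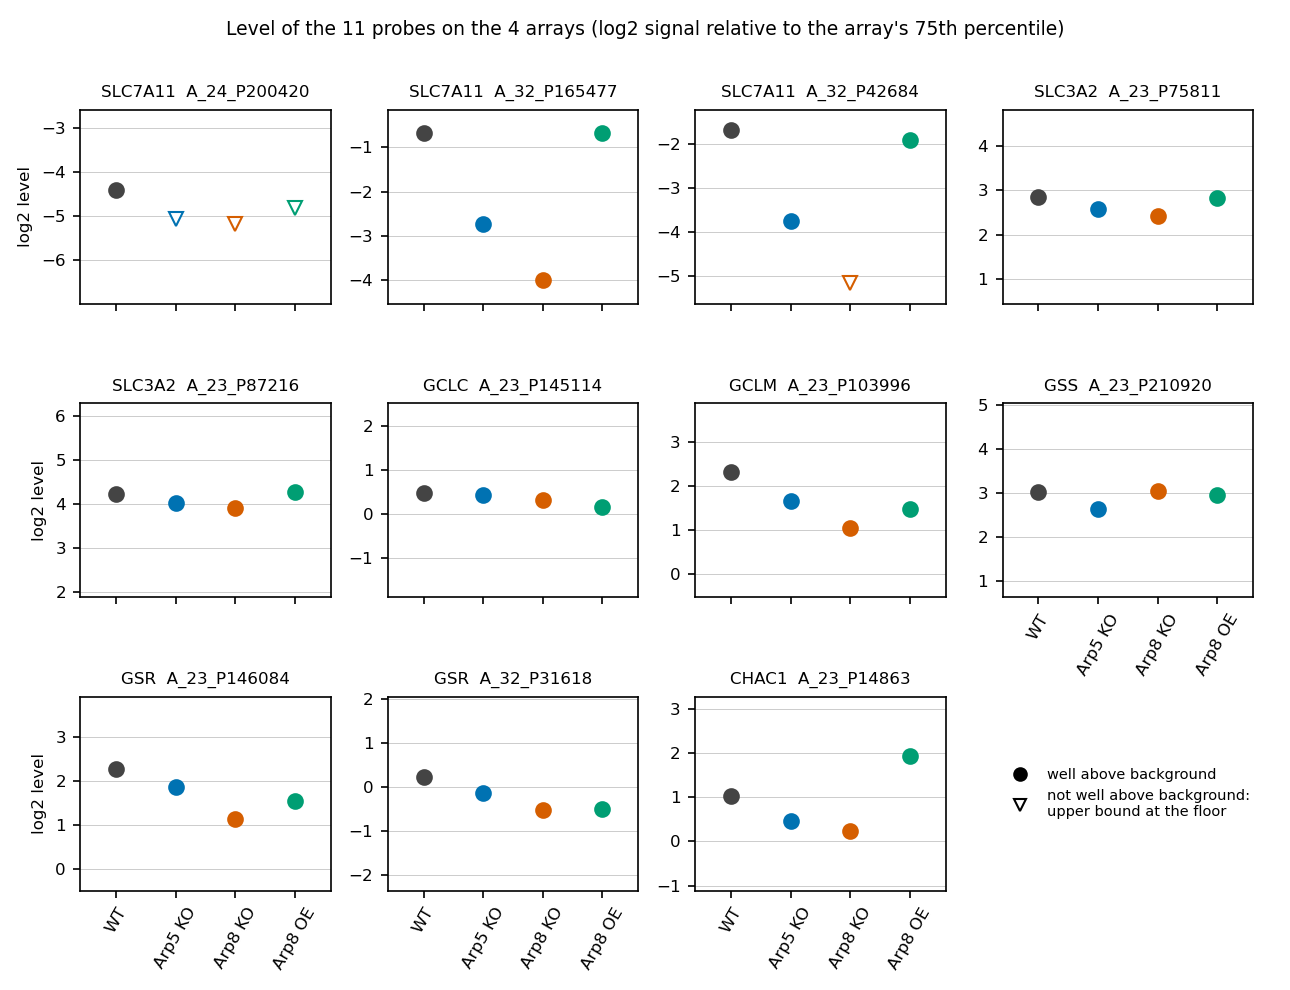
Level of each of the 11 probes on the 4 arrays, as log2 of the processed signal relative to the 75th percentile of the array, with 1 point per array and the same span on every vertical axis. Filled circles are well above background, and open triangles are upper bounds at the array's floor. The SLC7A11 probe A_32_P165477 went from -0.68 in WT to -4.01 in Arp8 KO, while GSS stayed between 2.63 and 3.04.

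Against WT, 2 of the 11 probes were over 2-fold lower in Arp5 KO, both of SLC7A11, where 2.01% of all 24285 probes tested were, and 0 were over 2-fold higher, beside 1.69% of all probes. In Arp8 KO, 4 of the 11 were over 2-fold lower, 2 of SLC7A11 and 1 each of GCLM and GSR, beside 4.35% of 24578 probes, and 0 were higher, beside 3.37%. In the Arp8 OE-labelled culture no probe of the 7 genes passed 2-fold in either direction, where 2.15% of 24177 probes were lower and 2.96% higher. In Arp8 KO 1 of the 4 was a bound, from a probe above background through WT and not in the knockout. Over the probes well above background on both arrays compared, 10 of 10 lay below WT in Arp5 KO, 8 of 9 did in Arp8 KO, and 7 of 10 in the Arp8 OE-labelled culture. Their median differences were -0.40, -0.74 and -0.14, where those of all such probes were 0.00, 0.03 and 0.01. Of all probes tested, 48.6%, 47.1% and 49.8% lay at or below a slight negative difference that rounds to 0.00. The counts below WT include differences within 1 technical SD, such as -0.04 for GCLC in Arp5 KO. In the Arp8 OE-labelled culture these were -0.01 for an SLC3A2 probe and -0.05 for GSS. These comparisons share the WT array, and SLC7A11, SLC3A2 and GSR have more than 1 probe each, so the probes are not independent. Both SLC7A11 probes that passed were over 2-fold lower in both knockouts, as were 414 of the 23773 probes tested in both, or 1.74%.

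**Figure D2:**
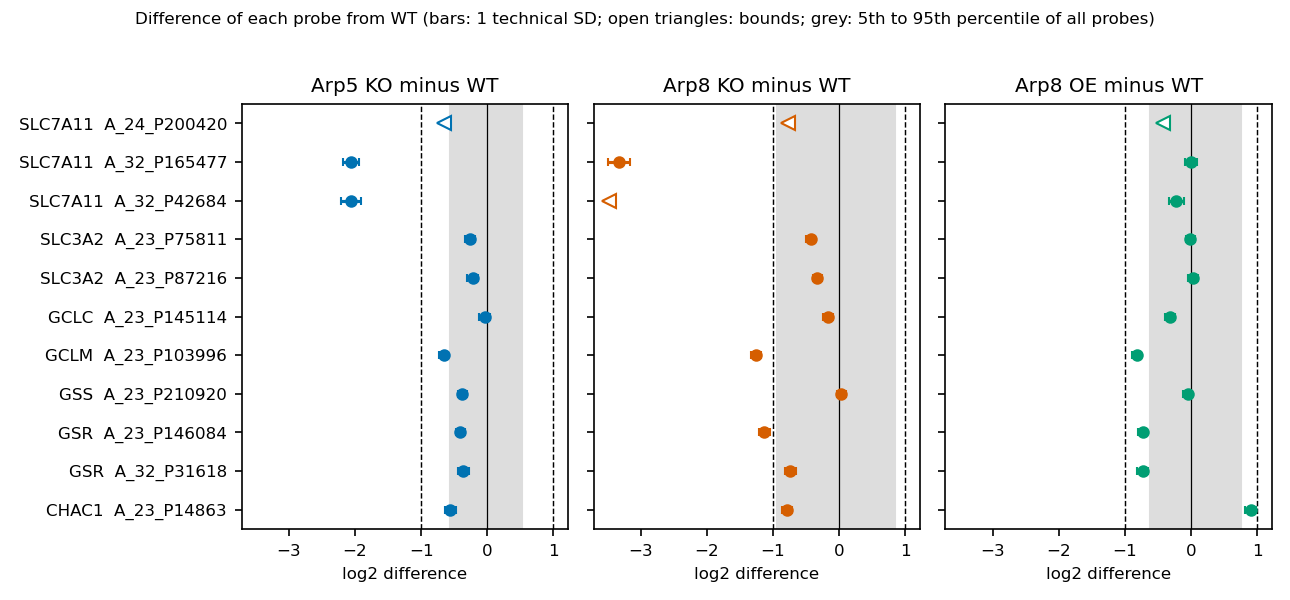
Log2 difference of each probe from WT in the 3 other cultures, with bars of 1 technical SD, dashed lines at 2-fold and a grey band from the 5th to the 95th percentile of all probes tested. Open triangles are bounds under the background subtraction used here, with the difference at or to the left of them. In Arp8 KO the band ran from -0.94 to 0.85, and SLC7A11 (-3.33 and a bound of -3.48), GCLM (-1.26) and GSR (-1.13) lay to its left.

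SLC7A11, the exchanger that brings cystine in against glutamate, had 3 probes. A_32_P165477, the brightest, had a level of -0.68 in WT, stood at -2.74 in Arp5 KO and at -4.01 in Arp8 KO, and was -0.68 in the Arp8 OE-labelled culture, from processed signals of 459.3, 111.0, 40.7 and 405.1. WT and the Arp8 OE-labelled culture were level, Arp5 KO was lower and Arp8 KO lowest. The difference from WT was -2.06 with a technical SD of 0.12 in Arp5 KO, or 4.16-fold lower, and -3.33 with an SD of 0.16 in Arp8 KO. In the Arp8 OE-labelled culture it was 0.00 with an SD of 0.09. Of the 6 spots next to this probe, 1 was over 2-fold brighter on the WT array alone.

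The second SLC7A11 probe, A_32_P42684, had no such neighbour and was also lower in both knockouts than in the other cultures. Its level was -1.69 in WT, -3.75 in Arp5 KO and -1.91 in the Arp8 OE-labelled culture, and it was not well above background in Arp8 KO, with a signal of 8.58 there against 227.9 in WT. The difference from WT was -2.06 with a technical SD of 0.15 in Arp5 KO, at least 11.1-fold lower in Arp8 KO, and -0.22 with an SD of 0.11 in the Arp8 OE-labelled culture. Both probes thus gave 4.16-fold for Arp5 KO. With normexp background correction and an offset of 50, the differences of the 2 probes were -1.54 and -1.25 in Arp5 KO and -2.11 and -1.77 in Arp8 KO, still past 2-fold. The third probe, A_24_P200420, was well above background on the WT array only, with a signal of 34.8, and was at least 1.58-fold, 1.70-fold and 1.33-fold lower in Arp5 KO, Arp8 KO and the Arp8 OE-labelled culture. With normexp its differences were -0.42, -0.39 and -0.14. The bounds of this and the second probe therefore hold only under the background subtraction used here.

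SLC7A11 also differed between the knockouts, under the background subtraction used here. Arp8 KO differed from Arp5 KO by -1.27 with a technical SD of 0.18 for A_32_P165477, and at least 2.67-fold lower for A_32_P42684. These 2 of the 10 probes tested in this pair were over 2-fold lower and 0 were higher, where 3.18% of all 24440 probes were lower in Arp8 KO than in Arp5 KO and 2.53% higher.

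SLC3A2, the heavy chain that SLC7A11 shares with other exchangers, differed far less. A_23_P87216 had levels of 4.24, 4.02, 3.91 and 4.27 and A_23_P75811 levels of 2.84, 2.59, 2.42 and 2.83 in WT, Arp5 KO, Arp8 KO and the Arp8 OE-labelled culture. Both probes gave the same picture: WT and the Arp8 OE-labelled culture lay within 1 technical SD of each other, and the knockouts were lower, with differences from WT of -0.22 and -0.26 in Arp5 KO and -0.33 and -0.43 in Arp8 KO. The technical SD was 0.07 or 0.08. The ARE core in 1 SLC3A2 window, shown above, thus stood beside differences of -0.22 to -0.43 in the knockouts. Setting the brightest probe of each gene side by side, the SLC7A11 difference exceeded that of SLC3A2 by -1.84 with an SD of 0.14 in Arp5 KO, stood at -3.33 against -0.33 in Arp8 KO, and was within -0.03 of it, with an SD of 0.11, in the Arp8 OE-labelled culture. Other light chains of SLC3A2 did not share the SLC7A11 values: of 5 genes, 3 (SLC7A5, SLC7A6 and SLC7A7, with 5 probes) could be compared, none passed 2-fold in any culture, and their differences in Arp8 KO ran from -0.56 to 0.48.

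The subunits of glutamate-cysteine ligase differed from each other. GCLM, the modifier subunit, had a level of 2.30 in WT, against 1.64, 1.04 and 1.47 in Arp5 KO, Arp8 KO and the Arp8 OE-labelled culture, so that each culture was lower than WT and Arp8 KO lowest. The differences from WT were -0.66, -1.26 and -0.82, with technical SDs of 0.07, 0.08 and 0.07, and only that of Arp8 KO, 2.40-fold, passed 2-fold. Arp5 KO and the Arp8 OE-labelled culture were neighbours in this order, 0.16 apart with an SD of 0.07. GCLC, the catalytic subunit, had levels of 0.47, 0.43, 0.31 and 0.15 in WT and these cultures. Its differences from WT were -0.04, -0.17 and -0.32 with an SD of 0.08 each, so that WT and Arp5 KO did not differ beyond the spread between spots and the Arp8 OE-labelled culture was lowest. GCLM lay further from WT than GCLC by -0.62, -1.09 and -0.50, each with an SD of 0.11. The GCLM window held an ARE core, as did a window of SLC3A2, and the GCLC window held none within the bases searched. Sequence further from the start site was not searched, and a link between the core and these differences was not tested.

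GSS, which completes glutathione, had a level of 3.01 in WT, against 2.63, 3.04 and 2.96 in Arp5 KO, Arp8 KO and the Arp8 OE-labelled culture. Arp5 KO alone stood below the others, by -0.38 against WT with a technical SD of 0.07, and it was the only gene of the 7 for which Arp5 KO lay below Arp8 KO, by 0.41 with an SD of 0.07. The differences of Arp8 KO and the Arp8 OE-labelled culture from WT, 0.03 and -0.05, were within 1 SD.

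GSR, which recycles oxidized glutathione, had 2 probes. The brighter, A_23_P146084, had levels of 2.28, 1.87, 1.15 and 1.55 and A_32_P31618 levels of 0.22, -0.14, -0.52 and -0.51 in WT, Arp5 KO, Arp8 KO and the Arp8 OE-labelled culture. On both, WT was highest and Arp5 KO next. For A_23_P146084 the differences from WT were -0.41, -1.13 and -0.73 with technical SDs of 0.07, 0.08 and 0.07, and for A_32_P31618 they were -0.36, -0.74 and -0.73 with an SD of 0.08. The probes agreed in Arp5 KO and in the Arp8 OE-labelled culture, but lay 0.40 apart in Arp8 KO, where only the brighter passed 2-fold and the mean of both, -0.93, did not. On A_32_P31618 Arp8 KO and the Arp8 OE-labelled culture were level. GCLM and GSR are both known NRF2 targets, and GCLM lay further from WT than the brighter GSR probe by -0.25, -0.13 and -0.10, with an SD of 0.10 or 0.11.

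CHAC1, the glutathione-cleaving enzyme, was the one member above WT by more than the technical SD in any culture. Its level was 1.03 in WT and 0.47, 0.24 and 1.93 in Arp5 KO, Arp8 KO and the Arp8 OE-labelled culture. The difference from WT was -0.56, -0.79 and 0.90, each with a technical SD of 0.08, and none passed 2-fold. Arp8 KO differed from Arp5 KO by -0.23, with the same SD. Among all probes tested, 5.01% were as low or lower in Arp5 KO, 6.93% in Arp8 KO, and 3.71% as high or higher in the Arp8 OE-labelled culture.

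With the Arp8 OE-labelled culture in place of WT as the reference, SLC7A11 was again over 2-fold lower in both knockouts, and GCLM and GSR were not. In Arp5 KO, 3 of the 10 probes tested were over 2-fold lower, beside 3.28% of all probes, and 0 higher, beside 2.08%. In Arp8 KO, 3 of 10 were over 2-fold lower, beside 3.78%, and 0 higher, beside 1.64%. In both cases the probes were the 2 brighter ones of SLC7A11 and that of CHAC1. SLC7A11 differed from this reference by -2.06 and -1.84 in Arp5 KO, and in Arp8 KO by -3.33 on the first probe and at least 9.57-fold on the second. CHAC1 differed by -1.47 with a technical SD of 0.08 in Arp5 KO and by -1.70 with an SD of 0.07 in Arp8 KO. GCLM, by contrast, differed by 0.16 in Arp5 KO, above the reference, and by -0.44 in Arp8 KO, and the GSR probes differed by 0.32 and 0.37 in Arp5 KO and by -0.41 and 0.00 in Arp8 KO.

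The genes around this pathway were described from 8 lists, of which some share a gene. Genes named from them have a probe past 2-fold from WT in some culture, except SLC7A5, SLC7A6, SLC7A7, CBS, MTR, CHAC2, GLRX, ASNS, NFE2L2 and ATF4, which were chosen after their values were seen. Of the genes that make cysteine from methionine, 0 of 12 probes for 6 genes passed 2-fold in any culture, with a median of 0.06 in Arp5 KO, one of 0.05 in Arp8 KO and one of -0.09 in the Arp8 OE-labelled culture. Within that list cystathionine beta-synthase (CBS) starts transsulfuration. CBS differed by -0.35, -0.78 and -0.16 on 1 probe and by -0.35, -0.85 and -0.24 on the other. Methionine synthase (MTR), which uses homocysteine to remake methionine, was higher in both knockouts on 3 probes. MTR differed by 0.44 to 0.66 in Arp5 KO, 0.30 to 0.72 in Arp8 KO and -0.03 to 0.14 in the Arp8 OE-labelled culture. None of 17 probes for 10 genes of glutamate and glycine supply passed 2-fold, with medians of -0.10, -0.26 and -0.01. In the gamma-glutamyl cycle and peptide breakdown, 5-oxoprolinase (OPLAH), which opens 5-oxoproline to glutamate, was higher by 0.87, 1.99 and 1.85, from a WT level of -4.17 near the floor. The dipeptidase DPEP1 was well above background in Arp8 KO only, where it was at least 2.29-fold higher. No other probe of the 6 or 7 tested in that list passed 2-fold, CHAC2, the relative of CHAC1, included (0.27, 0.30 and -0.19).

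For glutathione export, transport and thiol exchange, 1 of 13 probes passed 2-fold, where 2.15% of all probes were lower in the Arp8 OE-labelled culture. This dim probe of the exporter ABCC4 was at least 2.18-fold lower in that culture, while the second ABCC4 probe gave a bound of -0.04. The glutaredoxin GLRX differed from WT by 0.01, -0.12 and -0.02.

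**Figure D3:**
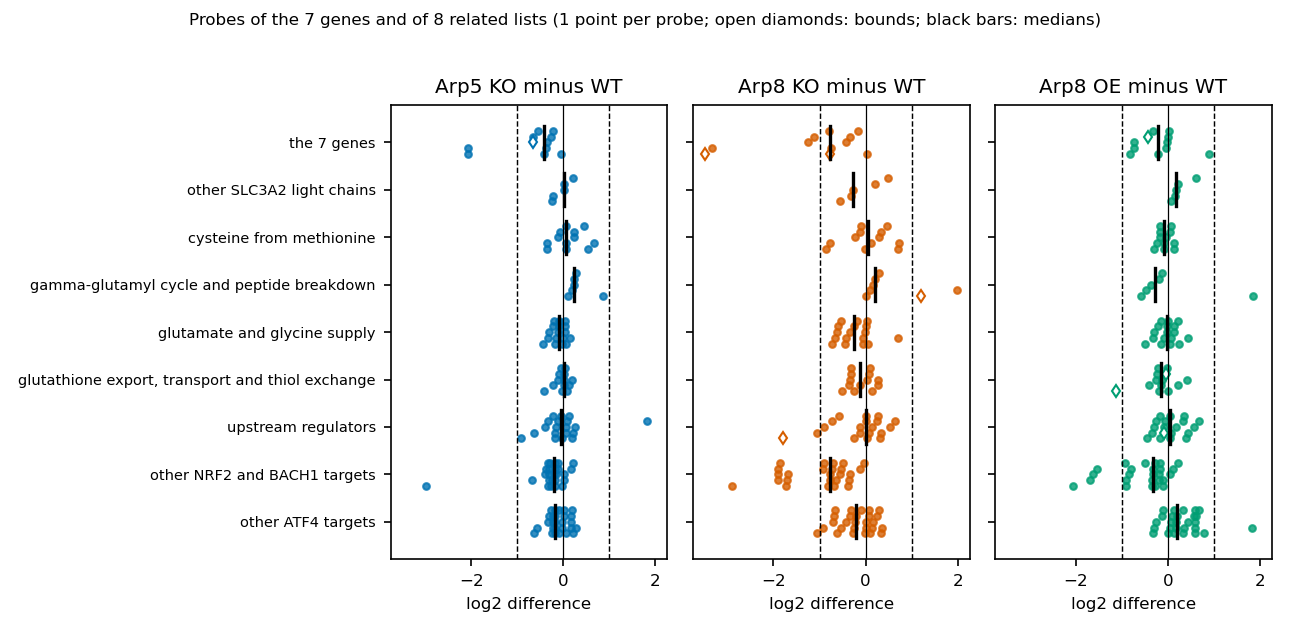
Log2 difference from WT of every probe of the 7 genes and of 8 related lists, with 1 point per probe, open diamonds for bounds, black bars at the list medians and dashed lines at 2-fold. Bounds enter the medians at their bound. In Arp8 KO the median of the other NRF2 and BACH1 targets was -0.77, and that of the other ATF4 targets was -0.20.

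Among other targets of NRF2 and BACH1, 1 of 25 probes was over 2-fold lower in Arp5 KO, 8 were in Arp8 KO and 4 were in the Arp8 OE-labelled culture. Of all probes, 2.01%, 4.35% and 2.15% were. None was higher, beside 1.69%, 3.37% and 2.96% of all probes, and the medians were -0.20, -0.77 and -0.33. Several genes of this list have more than 1 probe, and the 8 probes in Arp8 KO were of 4 of the 14 genes tested. The genes were HMOX1 (heme oxygenase), NQO1 (a quinone reductase), TXN (thioredoxin) and FTH1 (the ferritin heavy chain). HMOX1 differed by -2.98, -2.91 and -2.05 in Arp5 KO, Arp8 KO and the Arp8 OE-labelled culture, where the SLC7A11 probes above background differed by 0.00 and -0.22. NQO1 differed by -0.67, -1.86 and -1.68. TXN differed by -0.17, -1.69 and -1.53 on 1 probe and by -0.11, -1.72 and -1.62 on the other. In these last 2 genes, as in GCLM and GSR, the Arp8 OE-labelled culture stood lower than Arp5 KO. The same held for FTH1 and some others of this list, and not for HMOX1. FTH1 has many near-identical copies that its probes may also bind. On 4 of 5 probes it differed by -0.27 to -0.38 in Arp5 KO and by -1.71 to -1.91 in Arp8 KO. In the Arp8 OE-labelled culture these differed by -0.79 to -0.92. The fifth FTH1 probe gave 0.22, -0.70 and 0.05.

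Among other targets of ATF4, 0 of 27 probes passed 2-fold in Arp5 KO, 1 was lower in Arp8 KO and 1 higher in the Arp8 OE-labelled culture. Of all probes, 4.35% were lower in Arp8 KO and 2.96% higher in the Arp8 OE-labelled culture. In Arp5 KO 2.01% were lower and 1.69% higher. Counts this small cannot be told from those shares. The medians of the list were -0.17, -0.20 and 0.20. DDIT3 (CHOP), a stress-induced transcription factor, differed by -0.64, -1.05 and 0.68. Its values had the signs of CHAC1 in each culture, as had those of ASNS below and of several other genes of this list. DDIT4, a stress-induced inhibitor of mTORC1, differed by 0.16, 0.33 and 1.83, and the asparagine synthetase gene ASNS by -0.17, -0.10 and 0.59.

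Transcripts of the regulators were also measured. NFE2L2, which encodes NRF2, differed by -0.16, -0.13 and -0.25 from WT, and ATF4 by -0.04, -0.13 and 0.35 on 1 probe and by -0.12, -0.25 and 0.40 on the other. Of 19 probes for 12 regulators, 1 was over 2-fold higher in Arp5 KO, beside 1.69% of all probes. In Arp8 KO 2 were lower, beside 4.35%. The small MAF gene MAFF, whose product pairs with NRF2 or BACH1, differed by -0.91 in Arp5 KO, was at least 3.46-fold lower in Arp8 KO, and differed by -0.45 in the Arp8 OE-labelled culture. DDIT3, described above, was the other. BACH1 differed by 1.82 in Arp5 KO on a probe with a WT level of -4.73, near the floor, and by 0.05 on its brighter probe.

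The genes whose 3 differences from WT lay nearest to those of SLC7A11, GCLM and GSR were sought by Euclidean distance on the log2 scale. The search covered 16567 probes of other named genes that were well above background on all 4 arrays. A probe at background on any array could not enter. For SLC7A11 no probe searched lay close: the nearest were those of ISG20 at 1.04, HSPA1A at 1.12 and TEX19 at 1.26. ISG20, an interferon-induced exonuclease, differed by -1.42, -2.78 and -0.62 in Arp5 KO, Arp8 KO and the Arp8 OE-labelled culture. HSPA1A, a heat shock protein gene with a near-identical copy, differed by -2.66, -2.62 and -0.61 on that probe and by -1.22 and -1.24 in Arp5 KO on its other 2 probes. TEX19 differed by -1.02, -2.62 and -0.08.

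GCLM and GSR had close neighbours. Those of GCLM were probes of BCL2L13 at 0.12, SMAGP at 0.13 and ATPSCKMT at 0.14, and those of GSR were probes of SMAGP at 0.03, HSP90AB1 at 0.08 and HSP90AA1 at 0.09. Both SMAGP probes were among them, with differences of -1.34 and -1.13 in Arp8 KO. The cytosolic HSP90 chaperone genes HSP90AA1 and HSP90AB1 were less uniform: their other probes differed from WT by -0.18 to -1.24 and by -0.45 to -0.59 in Arp8 KO. Of BCL2L13 the other 2 probes gave -0.81 and -0.24, and of ATPSCKMT the other gave -0.76. These distances describe 4 arrays. They cannot be compared between members, since few probes lie as far from WT as SLC7A11. In Arp8 KO, 0.167% of the probes tested were as low as A_32_P165477 or lower, against 2.77% for GCLM.

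**Figure D4:**
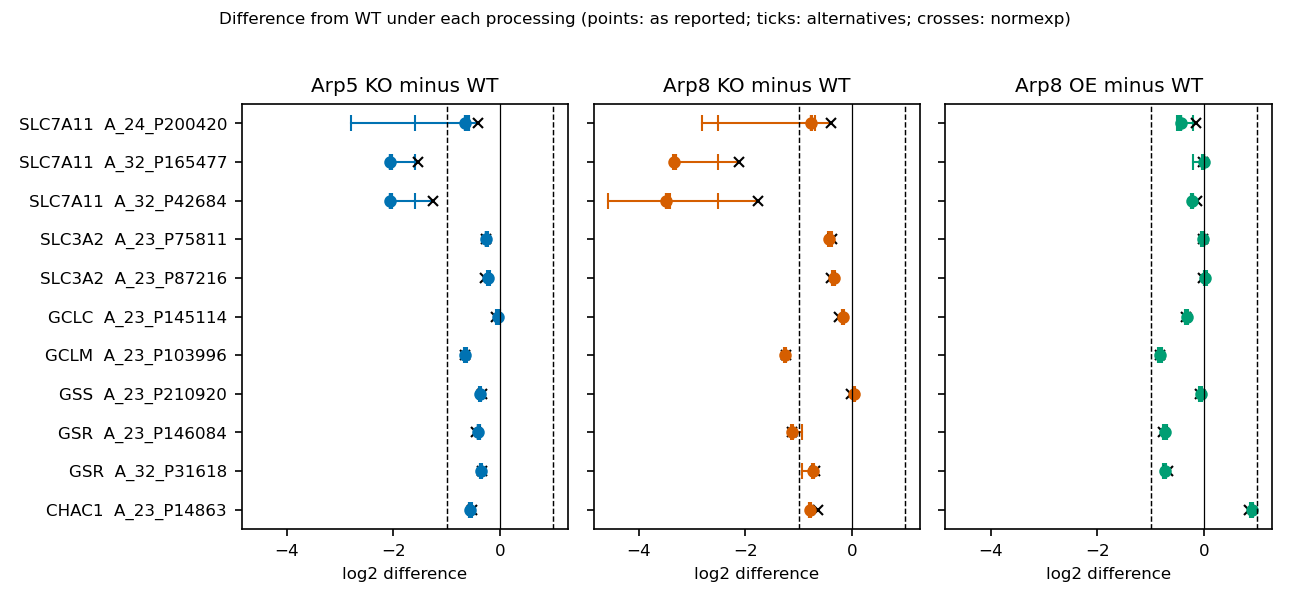
Log2 difference from WT of each of the 11 probes as reported (points) and under the alternative ways of processing (ticks, with crosses for normexp background correction; the line joins the lowest and the highest value; the mean over a gene's probes counts as 1 alternative for each of its probes). GCLM in Arp8 KO stayed between -1.27 and -1.24, while SLC7A11 probe A_32_P165477 ran from -3.36 to -2.11.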

How the data were processed

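RNA of 4 Nalm-6 cultures (1 each of WT, Arp5 KO, Arp8 KO and the Arp8 OE-labelled culture) was measured with Cy3 on Agilent arrays of 1 colour. Scanner files deposited by the authors give a linear intensity per spot, made with Agilent Feature Extraction (version 10.10.1.1 in the headers); its processed signal has the background subtracted and is not scaled between arrays. Deposited with it are flags for outlier spots, saturation and spots well above background. The authors' series matrix proved to be the same intensity times 1 factor per array (1.99 to 2.29), and served as an alternative.

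Spots flagged as outliers (69 to 76 per array, none of them a member's) were left out, log2 of the processed signal was scaled to the array's 75th percentile, and spots of a probe were averaged. A probe counted as above background where 50% or more of its spots did, and entered a comparison if it was so on either array. A dim probe was raised to the array's floor, the lowest level of a probe well above background (-5.17 to -4.81), where it lay under it, so that its difference is a bound, "at least N-fold". Such a bound holds under this background subtraction only. Each of the 11 member probes had 1 spot. The technical SD of a difference combined, over both arrays, the median SD between spots of the 30 replicated probes nearest in level. Of 41000 probes, 27210 (66.4%) matched a symbol in the RefSeq table of GRCh38.p14; the files name hg19, so no gene coordinates are given. With 1 array per group no test was made, and precision is limited by that number.

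The members and lists were chosen with earlier results of these data known. Named were all members, ACTR5 and ACTR8, genes of the 8 lists with a probe past 2-fold from WT, and the 3 genes nearest to each member past 2-fold. GGT1 had no probe by that symbol. The counting was tested on simulated data. Python 3.11.15, numpy 2.4.6, pandas 2.3.3, R 4.3.3 and limma 3.58.1 were used. The alternatives were median scaling, quantile normalization, cyclic loess, normexp (offset 50, on median spot signals, where the plan had named mean ones), the series matrix, probes well above background on both arrays, no filter and no floor, outlier spots kept, a threshold of 4-fold, averaging a gene's probes, Arp8 OE as the reference, and leaving out probes next to a spot (centres within 20 pixels) that was over 2-fold brighter on 1 array alone, where this held for 50% or more of the probe's spots.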

Additional observations from a re-analysis of the deposited data

How the results depend on the processing

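No paired analysis was possible because each genotype had 1 array. Of 433 recomputed values, 397 stayed within 1.5 times the count or within 1 technical SD of the value reported, 36 moved further and 0 of the differences past 2-fold changed sign. The counts of probes past 2-fold were the same under median scaling, quantile normalization and cyclic loess. The series matrix differs by 1 factor per array, which the scaling removes, and no outlier spot was a member's. These 2 settings therefore returned the reported member values and show nothing about robustness, though each gave 42 of the 397. Averaging a gene's probes left 1 gene of the 7 over 2-fold lower in Arp5 KO (SLC7A11) and 2 in Arp8 KO (SLC7A11 and GCLM). A 4-fold threshold left 2 probes in Arp8 KO, and leaving out the SLC7A11 probe beside a bright spot left 1 in Arp5 KO. The median over all 11 probes, with dim ones at their bound, was -0.41 in Arp5 KO, -0.77 in Arp8 KO, where the bound of A_24_P200420 set it, and -0.22 in the Arp8 OE-labelled culture, and came to -0.40, -0.74 and -0.14 over probes well above background on both arrays. With normexp it was -0.64 in Arp8 KO and -0.13 in the Arp8 OE-labelled culture. With that culture as the reference it became -0.25 for Arp5 KO and -0.41 for Arp8 KO. No filter and no floor moved the median of all probes by at most 0.11, and gave -2.80 and -2.82 for the dim SLC7A11 probe A_24_P200420 in Arp5 KO and Arp8 KO and -4.57 for A_32_P42684 in Arp8 KO, from signals under the floor. The spread between spots says nothing about the spread between cultures, and signal over background limits 2 of the 3 SLC7A11 probes. It also limits the third, A_32_P165477, in Arp8 KO, where its signal was 40.7 against a floor of 18.3. Its difference from WT there moved from -3.33 to -2.11 with normexp.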
